A study of Mus musculus with 8 samples.

Results

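Toll-like receptors and the proteins that work with them were followed in sorted leukaemic spleen cells of mice with MLL-AF10 acute myeloid leukaemia. Every probe set was taken that the platform annotation assigns, as its single symbol, to Tlr1, Tlr2, Tlr4, Tlr6, Tlr7, Tlr9, Tlr13, Cd14, Ly96 or Myd88. This gave 15 probe sets for the 10 genes, out of 18193 named genes on the array. The CD117pos arrays hold the c-kit-high fraction and the CD117neg arrays the fraction with little or no c-kit, both sorted from the spleen of the same mouse. Each of 4 mice gave 1 array per fraction, and the mice are named by the endings of their array titles, _948, _951, _952 and _953. In both fractions the leukaemia had been started by immortalized, retrovirally transduced c-kit+ stem and progenitor cells of the bone marrow, which were given to sub-lethally irradiated syngeneic mice of the strain that the labels write as CD57BL/6. Single mice are the replicates, but the cells they received share this origin. Neither the age of the animals nor the number of transductions behind the 4 leukaemias is stated in the labels, and a sub-lethally irradiated recipient keeps some blood cells of its own. Of the 10 genes, 7 were lower in CD117pos than in CD117neg cells, 0 were higher and 3, Tlr1, Tlr4 and Tlr9, did not pass the test. Over all named genes, 22.1% passed it, 13.8% as lower and 8.27% as higher in CD117pos cells.

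Toll-like receptors bind molecules of microbes and are found above all on macrophages, monocytes, neutrophils and dendritic cells. Tlr1, Tlr2, Tlr4 and Tlr6 act at the cell surface, where Tlr2 pairs with Tlr1 or Tlr6 to bind bacterial lipopeptides and Tlr4 binds lipopolysaccharide with the help of Cd14 and Ly96 (also called MD-2). Tlr7, Tlr9 and Tlr13 sit in endosomes and bind single-stranded RNA, unmethylated CpG DNA and bacterial ribosomal RNA. All of these receptors signal through the adaptor Myd88, which recruits Irak kinases and leads to NF-kappaB and to the interferon regulatory factors.

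Start-site windows of RefSeq (build GRCm38.p6), each running from 250 bases before the start site to 50 bases after it, were matched by symbol for 6 of the 10 genes, with 8 windows in all. The 5 windows below are all those that hold the letters GAGGAA, the core of the sites bound by the myeloid factor PU.1, or GAAA, any 2 bases and GAAA, as in interferon response elements. They belong to Tlr13, Tlr6 and Myd88, which fell in CD117pos cells, and to Tlr1 and Tlr9, which did not pass. Capitals mark these letters on either strand.
Tlr13 (GRCm38.p6, chrX:106143025-106143324, plus strand): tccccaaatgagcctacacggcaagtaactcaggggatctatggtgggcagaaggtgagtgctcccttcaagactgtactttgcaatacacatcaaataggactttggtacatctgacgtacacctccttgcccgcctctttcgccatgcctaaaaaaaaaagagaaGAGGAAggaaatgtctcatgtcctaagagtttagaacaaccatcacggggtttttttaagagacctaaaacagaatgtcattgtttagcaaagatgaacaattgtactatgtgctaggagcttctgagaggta
Tlr1 (GRCm38.p6, chr5:64933509-64933808, minus strand): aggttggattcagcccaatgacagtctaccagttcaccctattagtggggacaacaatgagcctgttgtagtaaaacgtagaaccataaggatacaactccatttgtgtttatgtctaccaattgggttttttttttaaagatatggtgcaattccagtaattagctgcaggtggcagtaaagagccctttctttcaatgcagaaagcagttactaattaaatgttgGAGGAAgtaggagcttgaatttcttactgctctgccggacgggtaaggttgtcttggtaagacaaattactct
Tlr6 (GRCm38.p6, chr5:64959117-64959416, minus strand): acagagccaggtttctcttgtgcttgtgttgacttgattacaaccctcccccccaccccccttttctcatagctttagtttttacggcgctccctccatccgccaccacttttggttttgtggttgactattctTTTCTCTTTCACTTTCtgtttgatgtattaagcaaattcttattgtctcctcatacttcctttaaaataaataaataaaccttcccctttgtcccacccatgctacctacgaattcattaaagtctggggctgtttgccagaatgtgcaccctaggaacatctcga
Myd88 (GRCm38.p6, chr9:119339969-119340268, minus strand): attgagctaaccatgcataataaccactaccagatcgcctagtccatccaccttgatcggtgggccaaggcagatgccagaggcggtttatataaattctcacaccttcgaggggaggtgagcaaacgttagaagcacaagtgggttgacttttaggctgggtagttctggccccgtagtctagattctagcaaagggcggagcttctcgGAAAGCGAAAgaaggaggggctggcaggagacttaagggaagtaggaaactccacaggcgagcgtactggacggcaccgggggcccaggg
Tlr9 (GRCm38.p6, chr9:106222348-106222647, plus strand): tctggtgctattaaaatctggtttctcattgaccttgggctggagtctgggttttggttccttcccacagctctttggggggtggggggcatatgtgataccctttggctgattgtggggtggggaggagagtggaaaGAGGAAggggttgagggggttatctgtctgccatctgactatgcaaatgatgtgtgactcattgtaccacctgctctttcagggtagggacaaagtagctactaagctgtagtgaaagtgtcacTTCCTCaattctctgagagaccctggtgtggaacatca
GAGGAA, or TTCCTC on the other strand, was in 3 of the 8 windows, those of Tlr13, Tlr9 and one of Tlr1, against 28.3% of all 32851 RefSeq windows of the same length and 27.1% of those of measured genes. Counted from the start site at 0, it began at position -83 in Tlr13, at -23 in Tlr1 and at -112 and 12 in Tlr9. The interferon response letters, or TTTC, any 2 bases and TTTC on the other strand, were in 2 of the 8 windows, one of Tlr6 with 2 overlapping matches and that of Myd88, against 3.44% of all windows and 3.03% of those of measured genes. The letters GGG, any 5 bases and CC, as in NF-kappaB sites, or GG, any 5 bases and CCC on the other strand, were in 2 of the 8 windows, that of Tlr2 and one of Tlr6, against 50.8% of all windows and 61.9% of those of measured genes. TTNNGCAA, as in sites of C/EBP factors, or TTGCNNAA on the other strand, was in 2 of the 8 windows, one of Tlr6 and that of Tlr13, against 10.8% of all windows and 9.39% of those of measured genes. In the windows shown, no matches of different motifs overlapped. Such matches describe the letters of the windows and are not evidence of binding.

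The deposited values were intensities on a linear scale. Array medians lay between 27.5 and 32.8 and between 841 and 898 values per array were exactly 1, so intensities near 1 carry no order. Arrays have no read depth, and their number limits the precision. The CD117pos array of mouse _951 stood apart, with correlations of log2 intensities of 0.928 to 0.930 with the other CD117pos arrays, while those 3 correlated at up to 0.987 with each other and the CD117neg arrays at 0.978 to 0.988. Kit, the sorted marker, had intensities of 754, 741, 599 and 909 in the CD117pos arrays of mice _948, _951, _952 and _953, against 28.7, 39.2, 15.7 and 30.9 in their CD117neg arrays, which checks the labels. Of the myeloid markers, the primary granule gene Mpo averaged 8583 ± 1656 in CD117pos and 1868 ± 461 in CD117neg cells (SD, n = 4 each), and Itgam, the CD11b gene, averaged 76.6 ± 46.0 in CD117pos and 488 ± 395 in CD117neg cells. Below, 4 intensities in a row follow this order of mice. In such bulk samples, fewer cells of a type and less RNA per cell cannot be told apart.

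Differences are CD117pos minus CD117neg on the log2(intensity + 16) scale, on which changes of dim genes come out too small. They were tested over all 18193 genes with limma, with the mouse as a block, and a gene passed where its Benjamini-Hochberg adjusted p was under 0.05. At an unadjusted p under 0.05 in limma, 7 of the 10 genes were lower and 0 higher, against 20.4% lower and 14.2% higher among all genes. The 7 genes that fell had differences equal to 3.41-fold to 25.1-fold lower levels. The median difference was -2.24 over the 10 genes and -0.01 over all genes tested. In the same 7 genes every CD117pos array lay below every CD117neg array, which was the case in 17.3% of all genes. The 10 genes were chosen with earlier results of these data known, so these shares describe them and are no test of them as a group.

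**Figure D1:**
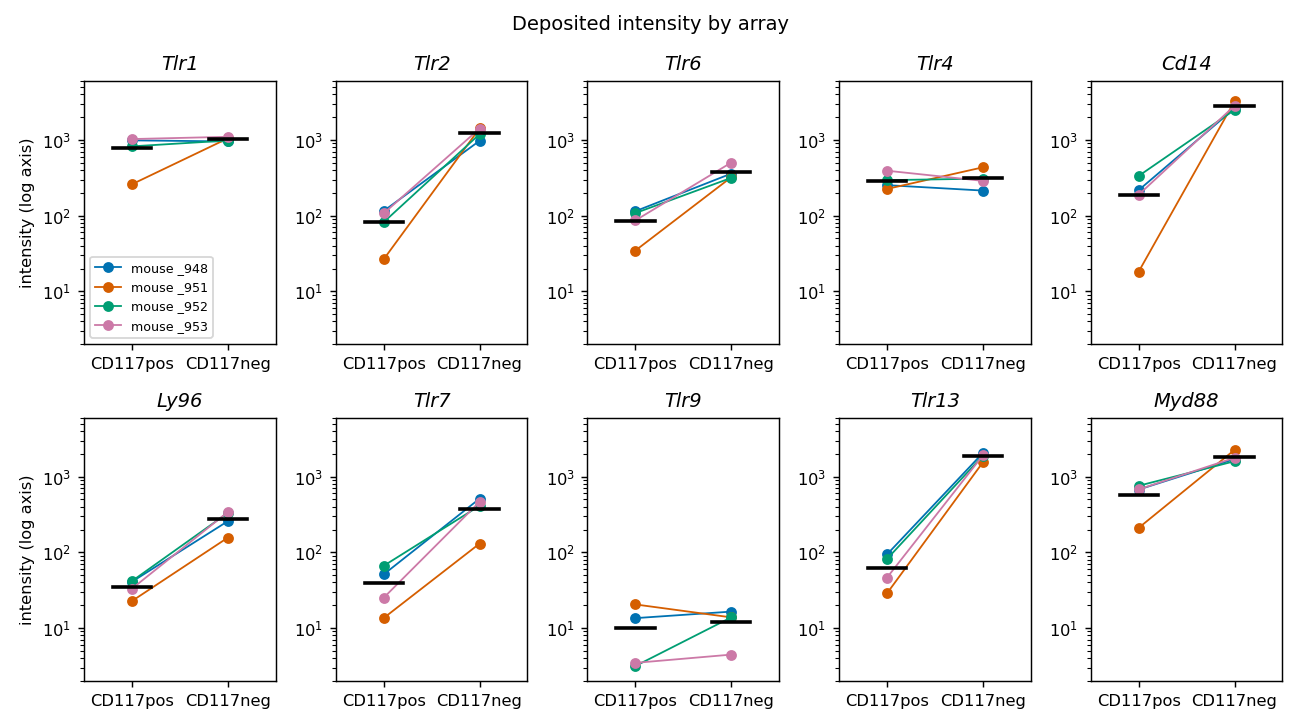
Intensity of each gene on a log axis in the CD117pos and CD117neg arrays, 1 line per mouse, with black bars for the means of 4 arrays. The lines of Tlr2, Tlr6, Cd14, Ly96, Tlr7, Tlr13 and Myd88 are lower on the CD117pos side in all 4 mice, while the fractions overlap for Tlr1, Tlr4 and Tlr9.

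Of the lipopeptide receptors, Tlr2 and Tlr6 fell in CD117pos cells. Tlr2 (1419132_at), the shared partner of both pairs, had intensities of 115, 26.5, 81.8 and 107 in the CD117pos arrays, against 973, 1420, 1192 and 1410 in the CD117neg arrays. The lowest CD117neg array was far above the highest CD117pos array, and the CD117pos array of mouse _951 was the lowest of all. The log2 difference of Tlr2 was -3.79 ± 0.35 (SE, limma adjusted p = 0.0024), a 13.8-fold lower level. Tlr6 (1421352_at), which pairs with Tlr2 to bind diacylated lipopeptides, had 114, 34.5, 108 and 86.3 in CD117pos and 359, 321, 315 and 502 in CD117neg cells. Its groups did not overlap either, and the difference was -2.01 ± 0.25 (limma adjusted p = 0.00551), a 4.01-fold lower level.

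Tlr1 (1449049_at), the other partner of Tlr2 and the receptor subunit for triacylated lipopeptides, behaved otherwise. It had intensities of 987, 260, 822 and 1027 in the CD117pos arrays, against 956, 1049, 983 and 1100 in the CD117neg arrays. The arrays of mice _948, _952 and _953 were close to each other in both fractions, and only the CD117pos array of mouse _951 was low. The difference was -0.56 ± 0.35 with a 95% interval from -1.44 to 0.31 (limma adjusted p = 0.331), and -0.10 without mouse _951 (adjusted p = 0.582). Within each of the 4 mice the change of Tlr2 was more negative than that of Tlr1, with differences between the 2 changes from -3.44 to -2.96. The change of Tlr6 was also more negative than that of Tlr1 in all 4 mice, with a mean difference between the 2 changes of -1.44 ± 0.62 (SD, n = 4 mice). These comparisons, and the 2 with Tlr4 below, were chosen after the values were seen. An exact permutation test that exchanged fractions within mice gave a two-sided p of 0.125 for each of the 4 pairs, also after Benjamini-Hochberg adjustment, which is the smallest p that 4 mice allow.

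The 2 partners of Tlr4 fell in CD117pos cells, while Tlr4 itself did not pass the test. Cd14 (1417268_at), the surface protein that hands lipopolysaccharide to the receptor, had 217, 18.2, 335 and 189 in CD117pos and 2615, 3239, 2493 and 2828 in CD117neg cells. The CD117pos array of mouse _951 was far below the other CD117pos arrays, and these in turn were far below all CD117neg arrays. The difference of Cd14 was -4.18 ± 0.61 (limma adjusted p = 0.00785), an 18.1-fold lower level, and -3.38 without mouse _951 (adjusted p = 0.000685). Ly96 (1449874_at), the lipopolysaccharide-binding subunit, had 40.9, 22.7, 41.8 and 33.2 in CD117pos and 258, 156, 332 and 341 in CD117neg cells. Its CD117pos values lay near the array medians, and its difference of -2.47 ± 0.16 (limma adjusted p = 0.000844) was similar in the 4 mice, from -2.86 to -2.15.

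Tlr4 (1418162_at) had intensities of 253, 225, 294 and 392 in the CD117pos arrays, against 214, 435, 308 and 288 in the CD117neg arrays. The fractions overlapped, with 2 mice lower and 2 mice higher in CD117pos. The difference was -0.08 ± 0.24 with a 95% interval from -0.67 to 0.51 (limma adjusted p = 0.851), and the 4 mice do not tell it apart from other changes within this interval. A second probe set of the gene, 1418163_at, had 255, 223, 304 and 331 in CD117pos and 252, 371, 259 and 287 in CD117neg cells, a difference of -0.07 ± 0.19 (limma over all probe sets, adjusted p = 0.857). The remaining 2 probe sets of Tlr4 were dimmer and did not pass either. One of them, 1442827_at, had 211 in the CD117pos array of mouse _951 and between 33.2 and 49.3 in the other 7 arrays, while both brighter probe sets were at their lowest CD117pos value in that array. The sign of the Tlr4 difference turned positive after quantile normalisation (0.08), after centring on array medians (0.06), with all its probe sets averaged (0.12) and without mouse _951 (0.19). The change of Cd14 was more negative than that of Tlr4 in all 4 mice, with a mean difference between the 2 changes of -4.10 ± 1.21 (SD, n = 4 mice), and that of Ly96 was more negative by a mean difference of -2.39 ± 0.84.

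**Figure D2:**
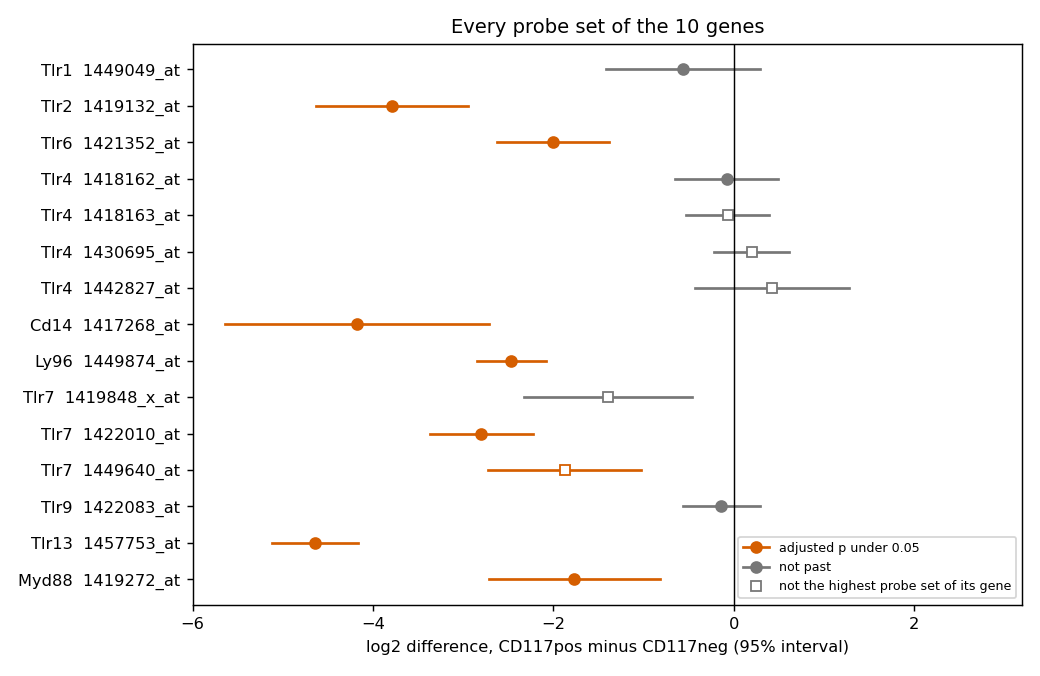
Log2 difference, CD117pos minus CD117neg, of each of the 15 probe sets with its 95% interval from the limma fit over all probe sets, orange where the adjusted p was under 0.05. The 4 Tlr4 probe sets all span 0, while those of Cd14 and Ly96 lie far below it, and the 3 Tlr7 probe sets are all below 0 with 2 of them past the threshold.

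Among the endosomal receptors, Tlr13 had the largest fall of the 10 genes. Tlr13 (1457753_at), a sensor of bacterial ribosomal RNA in mice, had intensities of 93.7, 28.7, 81.7 and 46.3 in the CD117pos arrays, against 2054, 1544, 1886 and 1906 in the CD117neg arrays. All CD117neg arrays were close together and all CD117pos arrays were far below them. The difference was -4.65 ± 0.19 (limma adjusted p = 0.000284), a 25.1-fold lower level, and it lay between -5.13 and -4.24 in single mice. Tlr7 (1422010_at), the receptor for single-stranded RNA, had 51.1, 13.5, 66.3 and 25.1 in CD117pos and 511, 130, 412 and 464 in CD117neg cells. In mouse _951 both fractions were low, and yet its CD117neg array stayed above all CD117pos arrays. The difference of Tlr7 was -2.80 ± 0.23 (limma adjusted p = 0.00189), a 6.97-fold lower level.

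The other 2 probe sets of Tlr7 were dimmer. Of all 15 probe sets, 8 fell, 0 rose and 7 did not pass, against 10.9% lower and 5.6% higher among all probe sets tested. Probe set 1449640_at averaged 13.8 ± 3.72 in CD117pos and 107 ± 58.7 in CD117neg cells (SD, n = 4 each), a difference of -1.88 ± 0.35 (limma over all probe sets, adjusted p = 0.0181). Its call ended without mouse _948 (adjusted p = 0.0932), without mouse _952 (0.0883) and without mouse _953 (0.0924). Probe set 1419848_x_at, whose suffix marks probes shared with other sequences, differed by -1.40 ± 0.38 without passing (adjusted p = 0.0585). It passed without mouse _951, with -1.90 (adjusted p = 0.00127), and not without mouse _948 (0.215), _952 (0.196) or _953 (0.214). Tlr9 (1422083_at), the receptor for CpG DNA, had 13.5, 20.5, 3.15 and 3.46 in CD117pos and 16.5, 13.8, 13.8 and 4.45 in CD117neg cells. All 8 values lay below the median of their array, so that its difference of -0.14 ± 0.17 (limma adjusted p = 0.631) bears on a signal too dim to compare.

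Myd88 (1419272_at), the adaptor that all these receptors use, also fell. It had intensities of 675, 210, 757 and 678 in the CD117pos arrays, against 1704, 2255, 1597 and 1776 in the CD117neg arrays. The fractions did not overlap, and mouse _951 had both the lowest CD117pos and the highest CD117neg value. The difference was -1.77 ± 0.39 (limma adjusted p = 0.0281), a 3.41-fold lower level. Without mouse _951 it was -1.25 (adjusted p = 0.00237). The call ended without mouse _948 (adjusted p = 0.0879), without mouse _952 (0.0669), without mouse _953 (0.0949) and with a pseudocount of 1 (0.0565), while the difference lay at or below -1.80 in each of them.

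**Figure D3:**
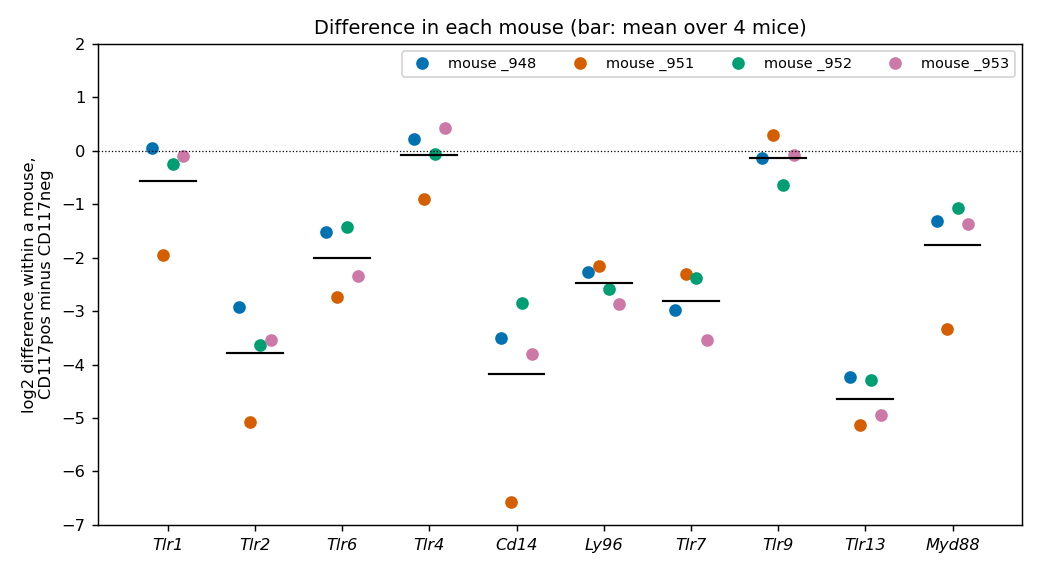
Log2 difference, CD117pos minus CD117neg, within each mouse, with bars for the mean over 4 mice. Mouse _951 lies lowest for Tlr1, Tlr2, Tlr4, Tlr6, Tlr13, Cd14 and Myd88, while the mice lie close together for Ly96.

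Mouse _951 had the most negative difference of the 4 mice in 7 of the 10 genes, and its CD117pos array was the lowest CD117pos array in 9 of them, all but Tlr9. The median difference of the 7 genes that fell was -2.91 in mouse _948, -3.33 in mouse _951, -2.59 in mouse _952 and -3.53 in mouse _953. By the brightest probe set of each gene, all 7 were lower in CD117pos cells in each mouse. The dimmer Tlr7 probe set 1419848_x_at was not lower in mouse _951, with 32.1 in CD117pos and 28.5 in CD117neg cells (0.11). There the Tlr7 probe set 1449640_at differed by -0.545. When the CD117pos array of mouse _951 was left out and no block was used, chosen after seeing the data, the same number, 7 of 10, were called lower and 0 higher.

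Other genes of the pathway were followed in 6 lists with 70 genes, of which 64 were measured. Of these, 33 fell in CD117pos cells, 0 rose and 31 did not pass, with a median difference of -0.56. Over all genes tested, 13.8% fell and 8.27% rose. At an unadjusted p under 0.05 in limma, 37 were lower and 0 higher, against 20.4% and 14.2% of all genes. The count of 33 became 20 without mouse _948, 21 without mouse _952 and 20 without mouse _953. The remaining 6 listed genes, Tlr11, Ticam2, Irak4, Traf3, Chuk and Nfkb1, were not analysed here. Among other receptors and receptor-like partners, 3 of 8 measured genes fell and 0 rose. Ly86, the MD-1 gene, had 662, 217, 671 and 479 in CD117pos and 2105, 1946, 2191 and 2438 in CD117neg cells, a difference of -2.18 ± 0.26 (limma adjusted p = 0.00488). Its receptor partner Cd180 differed by -1.71 ± 0.19 (adjusted p = 0.00381). Tlr5, the flagellin receptor, averaged 21.1 ± 7.56 in CD117pos and 123 ± 53.5 in CD117neg cells, a difference of -1.83 ± 0.22 (limma adjusted p = 0.00482). All of these CD117pos values of Tlr5 lay below the median of their array. Tlr3, Tlr8 and Cd36 were below the median of their array in all 8 arrays.

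Of 8 genes for chaperones, trafficking and processing of the receptors, 5 fell and 0 rose, against 13.8% and 8.27% of all genes. The 3 with the largest falls encode lysosomal proteases that can cut endosomal Toll-like receptors. Ctss, the cathepsin S gene, averaged 282 ± 213 in CD117pos and 7532 ± 710 in CD117neg cells. Lgmn, which encodes asparagine endopeptidase, with CD117pos values below the array medians, differed by -2.56 ± 0.16 and the cathepsin L gene Ctsl by -1.70 ± 0.19 (limma adjusted p = 0.000844 and 0.00393). With its probe sets averaged, Ctsl differed by -1.11. Unc93b1, the carrier of endosomal Toll-like receptors to their compartment, averaged 373 ± 78.6 in CD117pos and 738 ± 98.3 in CD117neg cells and fell by 0.97 on the log2 scale (limma adjusted p = 0.0121). Hsp90b1, the gp96 chaperone that folds most Toll-like receptors, differed by 0.06 ± 0.12 (limma adjusted p = 0.761), and its cofactor Cnpy3 by 0.12 ± 0.16 (adjusted p = 0.655). Unc93b1, Hsp90b1 and Cnpy3 were named after their values were seen.

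Of 15 measured genes for other adaptors and proximal signalling, 7 fell and 0 rose, against 13.8% and 8.27% of all genes. The median of these 15 genes was -0.50. Tirap, the adaptor that links Tlr2 and Tlr4 to Myd88, had 412, 269, 425 and 490 in CD117pos and 1045, 1510, 1073 and 1273 in CD117neg cells. Its difference was -1.60 ± 0.22 (limma adjusted p = 0.00717), without overlap of the fractions. The kinase gene Irak2 differed by -1.19 ± 0.13 and Tab2, an adaptor of the kinase Tak1, by -0.99 ± 0.15 (limma adjusted p = 0.00333 and 0.00935). The Tab2 call ended without mouse _953 (adjusted p = 0.0581).

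Of 10 genes that restrain the pathway, 4 fell and 0 rose, against 13.8% and 8.27% of all genes. Tnfaip3, the A20 gene, averaged 181 ± 60.3 in CD117pos and 544 ± 161 in CD117neg cells, a difference of -1.52 ± 0.21 (limma adjusted p = 0.0066), and -0.61 with its probe sets averaged (adjusted p = 0.0262). Pik3ap1, the BCAP gene, differed by -0.85 ± 0.20 and the deubiquitinase gene Cyld by -0.81 ± 0.19 (limma adjusted p = 0.0317 and 0.0345). Both calls ended after quantile normalisation (0.0748 for Pik3ap1 and 0.0695 for Cyld), when mouse _948, _952 or _953 was left out and with a pseudocount of 1. With its probe sets averaged Pik3ap1 differed by -0.41 (adjusted p = 0.211), and after centring Cyld had an adjusted p of 0.0721.

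Among 8 measured transcription factor genes downstream of the receptors, 7 fell and 0 rose, against 13.8% and 8.27% of all genes. The median of these 8 genes was -2.08. Irf5, which acts with Myd88 to induce cytokine genes, had 60.6, 23.1, 53.8 and 29.8 in CD117pos and 995, 641, 1094 and 1003 in CD117neg cells, a difference of -4.07 ± 0.15 (limma adjusted p = 0.000228), and -2.18 with its probe sets averaged (adjusted p = 0.000654). Irf8, a regulator of monocyte and dendritic cell fate, differed by -3.74 ± 0.36 and Irf7, which induces type I interferon genes, by -3.25 ± 0.17 (limma adjusted p = 0.00263 and 0.0005). Of 15 genes that Toll-like receptor ligands induce, 7 fell and 0 rose, against the same shares of all genes. The chemokine gene Cxcl2 averaged 11.6 ± 4.97 in CD117pos and 815 ± 583 in CD117neg cells. All 4 of its CD117pos values lay below the median of their array, and its difference was -4.70 ± 0.37 (limma adjusted p = 0.00158). Nfkbiz, which encodes a nuclear IkappaB protein, averaged 54.8 ± 49.5 in CD117pos and 960 ± 153 in CD117neg cells, and the interleukin 1 beta gene Il1b averaged 28.6 ± 5.70 in CD117pos and 759 ± 491 in CD117neg cells. The interleukin genes Il1a, Il6, Il12b and Il10 and the cyclooxygenase gene Ptgs2 were below the median of their array in all 8 arrays.

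**Figure D4:**
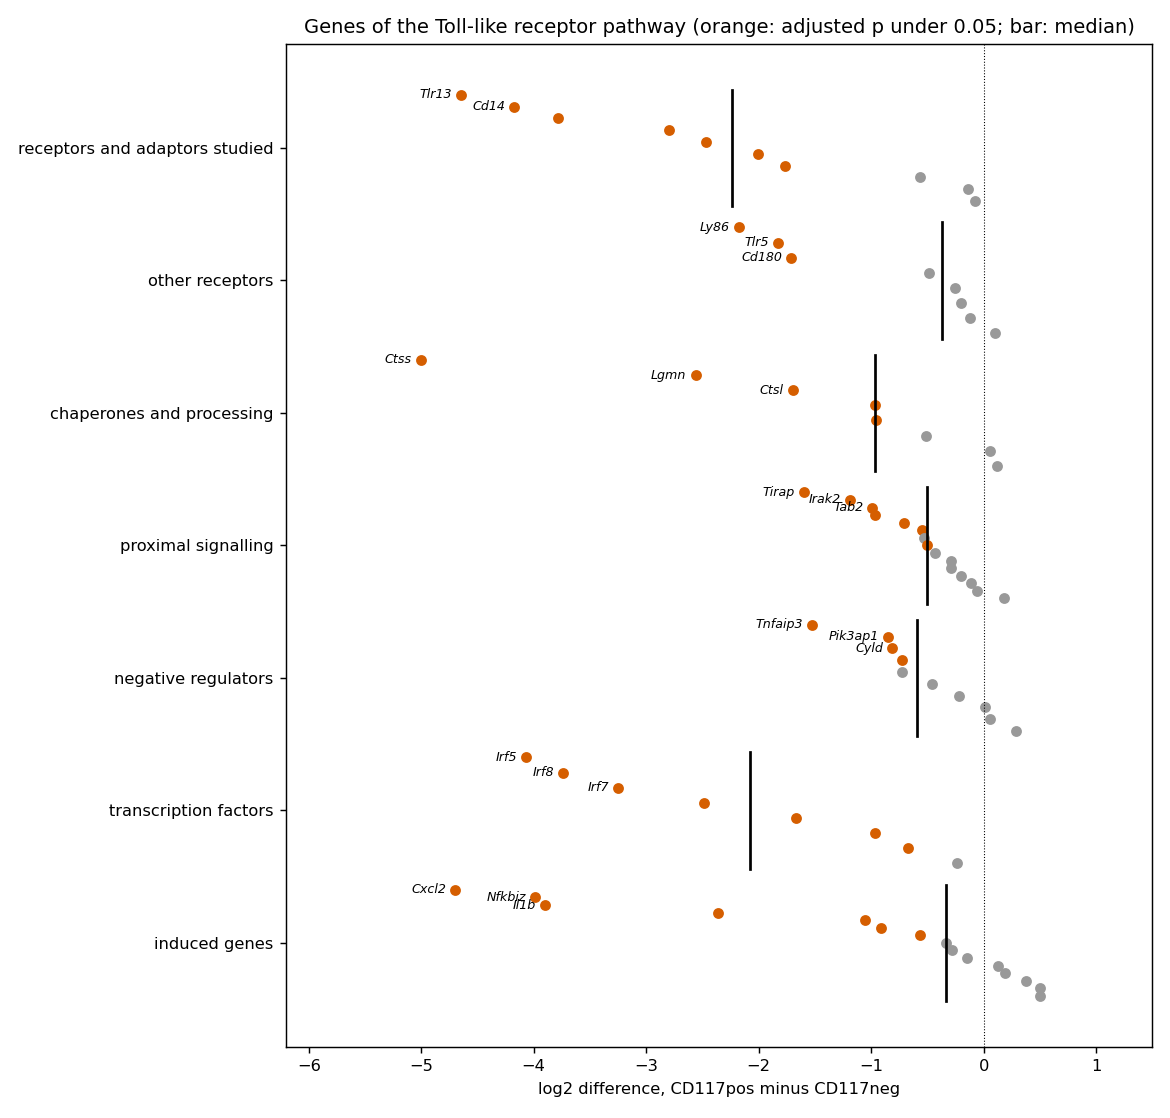
Log2 difference, CD117pos minus CD117neg, of the 10 genes and of the 64 other measured pathway genes by list, orange where the adjusted p was under 0.05, with bars for list medians. No gene past the threshold lies above 0, and the medians of the 6 lists lie between -2.08 and -0.33.

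Over the 8 arrays, the genes whose pattern was most like that of Tlr13 were Irf5, S100a6, a calcium-binding protein gene, and S100a10, with Pearson correlations of 0.998, 0.997 and 0.996 among 9087 genes with a mean above the median. For Cd14, whose probe set had the highest CD117neg mean among the 10 genes, they were Plcg2, Rasgrp4 and Pag1, with correlations of 0.998, 0.997 and 0.997. With 2 fractions that differ in 4015 genes such values are common, since 700 genes for Tlr13 and 683 for Cd14 had a correlation above 0.95. They are descriptions that share the 8 arrays.

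Markers of other cell types of the spleen that carry Toll-like receptors were given beside these results. For all marker counts below, the shares over all genes were 13.8% fallen and 8.27% risen. At an unadjusted p under 0.05 in limma they were 20.4% lower and 14.2% higher. Of 6 markers of plasmacytoid dendritic cells, which are known for Tlr7 and Tlr9, 0 passed in either direction, their summed intensity was 486 to 1340 in CD117pos and 434 to 579 in CD117neg arrays, and Pacsin1, Ly6d and Cox6a2 were below the median of their array throughout. At an unadjusted p under 0.05 in limma, 1 of the 6, Ccr9, was higher and 0 were lower. The highest sum was in the CD117pos array of mouse _951, where Klk1 had 1271. In every array most of the sum came from Klk1, with means of 647 in CD117pos and 432 in CD117neg cells. Means of Siglech were 25.0 in CD117pos and 26.0 in CD117neg cells, and those of Ccr9 20.9 and 11.5. Of 7 measured B cell markers, 1 fell and 0 rose, with sums of 153 to 311 in CD117pos and 477 to 745 in CD117neg arrays. The one that fell was Cd22, which averaged 17.2 ± 5.92 in CD117pos and 326 ± 97.9 in CD117neg cells, while Pax5, Ebf1 and Blk were below the median throughout. Cd22 was the largest part of the sum in every CD117neg array. Cd79a averaged 32.3 in CD117pos and 39.1 in CD117neg cells, Cd79b 126 and 190, and Ms4a1 30.1 and 30.6. Of 5 measured markers of conventional dendritic cells, Itgax fell (43.8 ± 7.02 in CD117pos and 605 ± 128 in CD117neg cells) and 0 rose. Their sums were at most 125 in CD117pos and 509 to 859 in CD117neg arrays, and Xcr1 and Ccr7 were below the median throughout. In every CD117neg array most of the sum came from Itgax. Of 10 markers of resident spleen macrophages, Axl fell and Vcam1 rose, while at an unadjusted p under 0.05 in limma 3 were lower, with Adgre1 at -1.13 (adjusted p = 0.0756) and Mertk at -1.52 (adjusted p = 0.0507), and 1 was higher. They had sums of 2653 to 3932 in CD117pos and 3420 to 4573 in CD117neg arrays, and C1qa, C1qc and Timd4 were below the median throughout. Most of these sums came from Adgre1, with means of 1359 in CD117pos and 2642 in CD117neg cells, and Vcam1, with 1716 and 784. Means of Spic were 22.4 in CD117pos and 32.9 in CD117neg cells, those of C1qb 44.7 and 59.2, and those of Cd5l 72.9 and 67.3.

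Of 7 measured T cell markers, 4 NK cell, 5 erythroid and 4 platelet markers, 0 passed in either direction, and at an unadjusted p under 0.05 in limma only 1 platelet marker was lower. The T cell sum was 79.4 to 804 in CD117pos and 132 to 170 in CD117neg arrays, and Cd3e, Cd3d, Cd3g, Cd4 and Cd8b1 were below the median throughout. Its highest value was in the CD117pos array of mouse _951, where Cd8a had 537 and Thy1 245. The sums were 33.9 to 47.3 in CD117pos and 34.6 to 65.5 in CD117neg arrays for NK cells, 58.8 to 164 in CD117pos and 75.5 to 98.2 in CD117neg arrays for erythroid cells, and 76.5 to 126 in CD117pos and 79.1 to 120 in CD117neg arrays for platelets. Of 7 myeloid markers, 5 fell and 1, Mpo, rose, and at an unadjusted p under 0.05 in limma Cebpa was also higher, with 0.56 (adjusted p = 0.0927). They had sums of 9624 to 13940 in CD117pos and 17330 to 18490 in CD117neg arrays. The largest part came from Mpo in the CD117pos arrays and from Lyz2 in the CD117neg arrays. Mpo averaged 8583 in CD117pos and 1868 in CD117neg cells, Lyz2 1313 and 8481, and Cd33 1057 and 3917. Spi1, the PU.1 gene, had 537, 138, 426 and 441 in CD117pos and 1328, 836, 1047 and 1268 in CD117neg cells, a difference of -1.63 ± 0.23 (limma adjusted p = 0.00745). The part of these markers in the falls of the Toll-like receptor genes was not tested.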

How the data were processed

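Per the labels' protocols, polyA RNA was amplified in 2 cycles, labelled with biotin and hybridised to 1-colour Affymetrix arrays. Each of the 45101 probe sets had 1 deposited linear intensity on each of 8 arrays. How the authors summarised probes and scaled arrays is not given in the sources, and detection calls were not analysed here. Arrays were used as deposited, and fractions and mice were read from the array titles.

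Probe sets were named from the platform annotation. Apart from 64 controls, which were left out, 34945 had 1 symbol, 932 several and 9160 none. Of the first, 34741 matched a current gene table by gene identifier, which changed 0 symbols. For each of the 18193 genes, the probe set that was brightest on average over all 8 arrays was used. Values were transformed to log2(intensity + 16) and fitted with limma 3.58.1 (lmFit and eBayes, two-sided) in R 4.3.3, with the mouse as a block. All 45037 probe sets were fitted in the same way, and 16.5% of them passed. The fit was tested on simulated data. Plots were made in Python 3.11.15 (matplotlib 3.10.9).

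The mouse pairs the arrays by the design text. Deviations from the fraction means correlated between the fractions at 0.206, 0.223, 0.271 and 0.12 across genes within mice _948, _951, _952 and _953, and at no more than 0.109 between mice. In each pathway list, up to 3 genes are named, those that passed with the largest differences and had the same sign in all 4 mice. The genes and lists were chosen with earlier results of these data known. Alternatives were other pseudocounts (1 and 64), quantile normalisation, centring, a filter on low genes, averaging the probe sets of a gene, leaving out probe sets of shared sequence, no block, an intensity trend, leaving out each mouse and, chosen after seeing the data, leaving out the CD117pos array of mouse _951.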

Additional observations from a re-analysis of the deposited data

Results flagged for a closer look

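In each fraction of 4 arrays, the lowest and highest array of the 10 genes, of their other probe sets and of the named pathway genes was compared with the nearest other array by Dixon's ratio on the log2(intensity + 16) scale, in 66 groups. Chance flags about 1 group in 20, and 5 were past the critical value, 3 of them through the CD117pos array of mouse _951. In that array Tlr1 had 260, against 822 to 1027 in the other CD117pos arrays, and Myd88 had 210, against 675 to 757. The Tlr4 probe set 1442827_at had 211 there, against 33.3 to 44.4 in the other CD117pos arrays. In the CD117neg array of mouse _951, Tlr7 had 130, against 412 to 511 in the other CD117neg arrays. In the CD117neg array of mouse _948, Ctsl had 1209, against 1509 to 1570.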

How the results depend on the processing

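Of the 10 genes, 7 were called lower under every alternative except a pseudocount of 1 and leaving out mouse _948, _952 or _953, where Myd88 was lost and 6 were called. None was called higher. Without the pairing by mouse (no replicate block), the same 7 were called, with 34 pathway genes lower, and the Tlr7 probe set 1419848_x_at passed (adjusted p = 0.0291). The sign of Tlr4 turned after quantile normalisation (0.077), after centring (0.057), with its probe sets averaged (0.118) and with the CD117pos array of mouse _951 left out (0.027, added after seeing the data), and leaving out 1 mouse gave -0.248 to 0.194. For its probe set 1418163_at the values were 0.086, 0.068 and, without that array, 0.027, with -0.162 to 0.142 without 1 mouse. For 1442827_at the value without the CD117pos array of mouse _951 was -0.104, with -0.037 to 0.648 without 1 mouse, and for Tlr9 leaving out 1 mouse gave -0.283 to 0.027. In the fit over all probe sets, Cd14 did not pass without mouse _953 (adjusted p = 0.0542). With a pseudocount of 64, differences were -3.94 for Tlr13, -3.20 for Tlr2, -2.02 for Tlr7, -1.73 for Ly96, -3.23 for Irf5, -3.34 for Cxcl2, -3.17 for Nfkbiz, -2.96 for Il1b, -1.36 for Lgmn, -1.09 for Tlr5 and 3.13 for Kit. With a pseudocount of 1 they were -4.04 for Lgmn, -5.86 for Cxcl2, -2.43 for Tlr5 and 4.72 for Kit, and with probe sets averaged -2.03 for Tlr7, -3.22 for Nfkbiz and 2.61 for Kit. The 33 falls among other pathway genes became 20 to 34 without 1 mouse, with the lowest counts without mouse _948 or _953 (20) and _952 (21). Over all genes, 2511 were lower and 1504 higher in the deposited intensities, 1181 to 2983 and 416 to 2106 without 1 mouse, and higher calls numbered 992 with a pseudocount of 1 and 2420 after quantile normalisation. Higher genes made up 37.5% of calls in the deposited intensities, 55.4% after quantile normalisation and 50.8% after centring. The causes were not tested.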
